A study of Homo sapiens with 16 samples.

Results

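This comparison sets 4 samples of SK-N-SH cells exposed to 10 µM risperidone for 48 h against 4 samples of control cells, 8 of the 16 samples of a time course that also took samples after 6 and 24 h. The line comes from a human neuroblastoma, a tumour of the sympathetic nervous lineage, and its cultures are mixed: rounded neuroblast-like cells of adrenergic type grow among flat cells of mesenchymal type. Risperidone is an antipsychotic drug that blocks dopamine D2 and serotonin 2A receptors. The samples were chosen by their titles, and every gene with a probe set of its own on the Human Genome U219 array was described. Before exposure all cultures had grown for 48 h and were close to confluent. The titles call the control cells untreated, while the protocol gives control cells the solvent DMSO at no more than 1% of the volume. A harvest time of the controls is not given in the sources used here, so 48 h of drug and 48 h of further culture cannot be told apart. Each sample is labelled a biological replicate, with no account of separate cultures, so p-values reflect only how far these samples vary, which may be technical variation.

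Neuroblasts of the sympathetic lineage depend on transcription factors such as PHOX2A, HAND2, GATA3 and ISL1, and make noradrenaline and store it in granules. Mesenchymal neuroblastoma cells rely instead on factors such as PRRX1, secrete collagens and fibronectin, and have contractile actin fibres and active YAP, a coactivator that works with TEAD proteins. Cells of either state divide, and their division can be followed through genes of DNA copying and of mitosis.

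Values are log2 expression values, so a difference of 1 is a 2-fold change, and differences are given with their standard error (n = 4 arrays in each group). Of 13680 genes tested, 7792 (57.0%) differed between 48 h and untreated at an adjusted p under 0.05 in limma, a linear model fitted to all genes. Higher at 48 h were 4918 genes (36.0%) and lower were 2874 (21.0%). With cyclic loess scaling the split was 3600 higher and 4001 lower, so small differences take their sign from the scaling. Large differences lay mostly on the lower side: 612 genes were at least 2-fold lower and 232 at least 2-fold higher, and 81 against 2 passed 8-fold. The 4 arrays of 48 h lay wholly outside the range of the 4 untreated arrays for 6529 genes (47.7%). Many genes have further probe sets. Of the genes named here that differed from untreated, 207 have at least 1 more: for 150 of them every other probe set passed in the same direction, for 30 some did and for 27 none did, in which case the other value is given beside the gene. Averaging all probe sets of a gene moved 98 of the named differences by over 1.5 times, 94 of them towards 0. Each gene list named from here on is read against these shares, and its median against the median over all genes tested, 0.075.

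**Figure D1:**
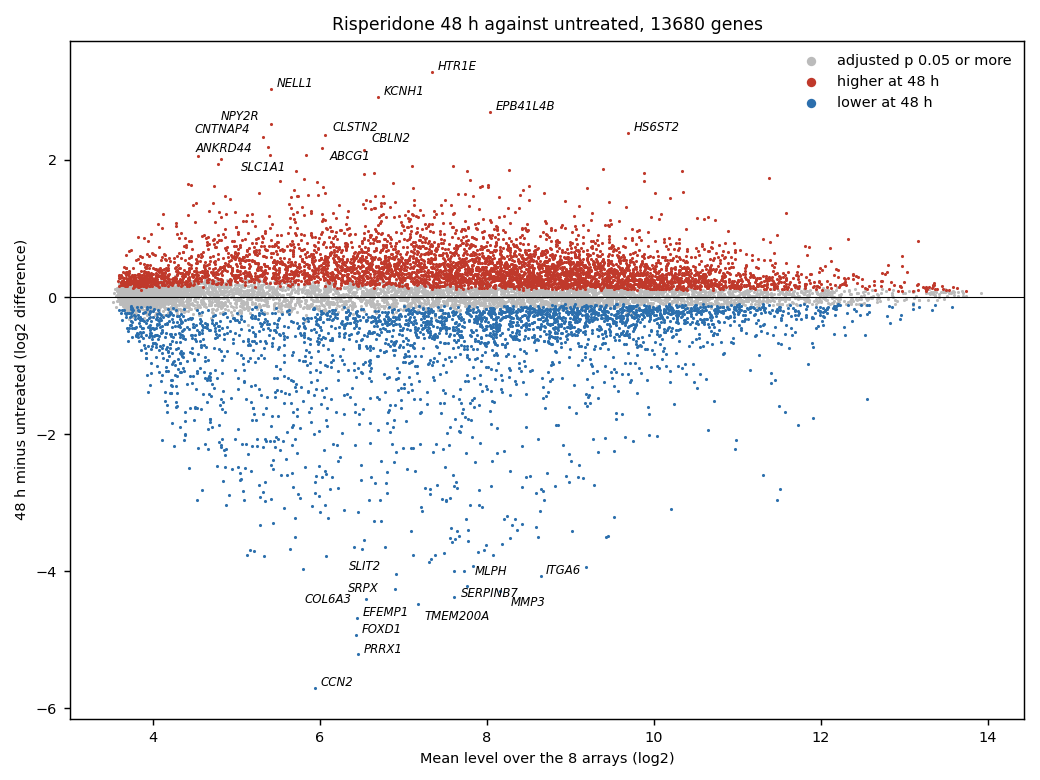
Difference at 48 h minus untreated (log2, vertical axis) against the mean over the 8 arrays (log2, horizontal axis) for the 13680 genes tested, with genes at an adjusted p under 0.05 in colour and the 12 largest rises and falls named. The falls reach -5.70 (CCN2) and the rises 3.29 (HTR1E).

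The labelled cell type was checked against markers. All 9 tested neuroblast markers were above the filter on dim genes in both groups, and 8 of them rose and 0 fell. Their summed level, on the log2 scale, was 14.5 to 14.55 in untreated arrays and 15.04 to 15.08 at 48 h. Fibroblast markers were present too: 9 of 10 fell and 1 rose, and their summed level went from between 13.2 and 13.35 to between 11.91 and 12.17. Among the epithelial markers the keratin gene KRT18 fell by 3.62 ± 0.15 and KRT8 fell by 0.32 ± 0.07, and the other 3 tested did not pass. In the other marker lists 3 of 9 measured members were bright enough to be tested for blood cells and 2 of 6 for melanocytes. For the endothelium they were 5 of 8, and for Schwann cells and glia 4 of 7. For blood cells 3 were tested and CD68 fell by 1.53 ± 0.1, for melanocytes 2, of which MITF fell by 0.95 ± 0.08 and PMEL rose by 0.31 ± 0.07, for the endothelium 5, of which TIE1 rose by 0.2 ± 0.07 (other probe sets -0.07 to 0.11, and 0.138 under cyclic loess, adjusted p = 0.107), and for Schwann cells and glia 4, of which MBP fell by 1.54 ± 0.1 and S100B rose by 0.39 ± 0.05. Markers too dim to be tested included PTPRC and CD14 of blood cells, TYR and MLANA of melanocytes, and CDH5, CLDN5 and ESAM of the endothelium. The other 4 tested markers of the endothelium did not pass. The part of a change in the mix of cells in what follows was not tested, and in these bulk samples fewer cells of a type and less RNA per cell cannot be told apart. The 3′ to 5′ difference of control transcripts, a sign of RNA quality, was 0.123 ± 0.0435 in untreated arrays and 0.1 ± 0.0141 (SD) at 48 h for GAPDH (exact two-sided permutation test, p = 0.514, smallest possible 0.0286). For ACTB it was 1.77 ± 0.166 and 1.9 ± 0.174 (SD; exact permutation p = 0.429).

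Mesenchymal identity genes were far lower at 48 h. Of 24 tested, 21 fell and 1 rose, with a median of -1.84. The homeobox factor PRRX1 measured 8.88, 9.11, 9.04 and 9.25 in the 4 untreated arrays and 3.94, 3.62, 3.84 and 4.03 at 48 h. No array of either group came near the other, and the difference was -5.21 ± 0.14 (adjusted p = 1.62e-14). Another probe set of PRRX1 gave a smaller fall, -1.96. Fibronectin, FN1, went from 10.28, 10.41, 10.4 and 10.36 to 6.63, 6.86, 6.93 and 7.0, a fall by 3.51 ± 0.09. Vimentin, VIM, the intermediate filament protein of mesenchymal cells, stayed bright, with 13.16, 13.35, 13.34 and 13.34 in untreated and 11.8, 11.82, 11.74 and 11.9 at 48 h (-1.48 ± 0.06). The transcription factors RUNX2 (-3.13 ± 0.12), RUNX1 (-2.68 ± 0.13), TWIST2 (-2.5 ± 0.12) and SNAI2 (-2.14 ± 0.07) fell with them, as did the hyaluronan receptor CD44 (-3.21 ± 0.11) and the receptor kinase AXL (-3.51 ± 0.11). TWIST1 rose by 0.17 ± 0.05, while NOTCH3 (0.05 ± 0.07, or -0.21 with its probe sets averaged) and ELK4 (0.13 ± 0.1) did not pass. Most of these genes were already low at 24 h: against 24 h, 4 of the 24 were higher and 5 lower, where 13.5% and 15.1% of all genes were. Lower again at 48 h than at 24 h were SNAI2 (-0.6 ± 0.07), SMAD3 (-0.57 ± 0.05), FOSL2 (-0.56 ± 0.14), TAGLN (-0.53 ± 0.13) and VIM (-0.18 ± 0.06).

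Adrenergic identity genes stood higher. Among the 21 tested genes 16 rose and 3 fell (median 0.43). DBH, the enzyme that makes noradrenaline from dopamine, measured 10.62, 10.59, 10.37 and 10.46 in untreated arrays and 12.25, 12.2, 12.18 and 12.38 at 48 h. Its arrays did not overlap, the difference was 1.74 ± 0.07 (adjusted p = 8.63e-13), and it was also 0.4 ± 0.07 above 24 h (adjusted p = 0.000262). The factor EYA1 rose by 1.6 ± 0.05, KLF13 by 0.9 ± 0.06, ISL1 by 0.54 ± 0.05, PHOX2A by 0.46 ± 0.04, GATA3 by 0.42 ± 0.06 and HAND2 by 0.13 ± 0.05. HAND2 lost its call under cyclic loess (adjusted p = 0.124), with each array's median subtracted (0.0761), in a fit of the 8 arrays compared (0.0646) and without untreated replicate 3 or 48 h replicate 4 (0.0567 to 0.0695). Secretogranin II, SCG2, fell by 0.98 ± 0.06 and DACH1 fell by 0.25 ± 0.07 (other probe set -0.17). Tyrosine hydroxylase, TH, the rate-limiting enzyme of the pathway, did not pass (0.1 ± 0.07, adjusted p = 0.234).

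**Figure D2:**
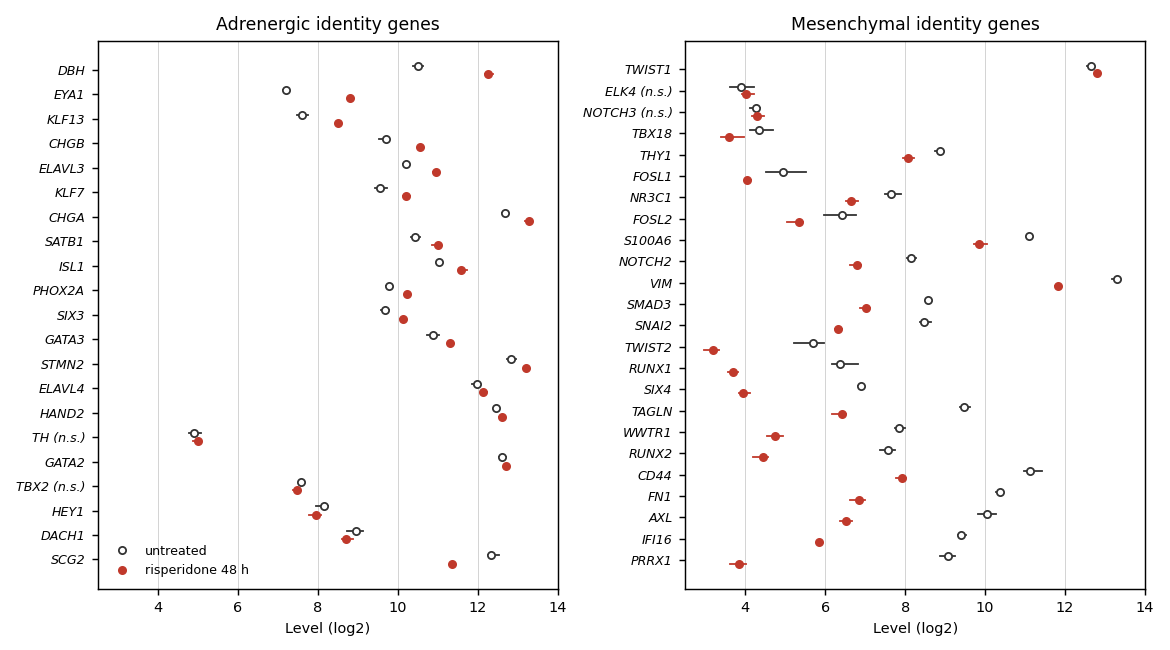
Mean level (log2, horizontal axis) of each tested adrenergic identity gene (left) and mesenchymal identity gene (right) in untreated arrays (open circles) and at 48 h (filled circles), with lines from lowest to highest array, n = 4 each. Among adrenergic genes 16 of 21 moved up at the threshold, and among mesenchymal genes 21 of 24 moved down.

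Matrix genes fell on a broad front. Among 17 tested collagens 12 fell and 0 rose (median -0.96). The same counts held against untreated at 6 h (median -0.88) and at 24 h (median -0.805). COL6A3, a chain of the beaded filament collagen VI, went from 8.64, 8.71, 8.74 and 8.93 in untreated arrays to 4.04, 4.25, 4.42 and 4.69 at 48 h, a fall by 4.41 ± 0.11, while the other chains COL6A1 (-0.2 ± 0.05, other probe sets 0.06 to 0.16) and COL6A2 (-0.08 ± 0.09) differed little: the former passed, but with its probe sets averaged it was 0.035, and the latter did not pass. The fibrillar collagen genes COL1A1 (-3.27 ± 0.1), COL5A1 (-2.41 ± 0.12), COL5A2 (-2.01 ± 0.13), COL11A1 (-1.89 ± 0.13) and COL3A1 (-1.76 ± 0.1) all fell, as did the basement membrane chain COL4A1 (-1.37 ± 0.06). Of 36 glycoproteins, proteoglycans and matrix enzymes, 25 fell and 7 rose (median -0.99), or 28 and 3 under cyclic loess. EFEMP1, a fibulin-like matrix protein, had 8.72, 8.75, 8.9 and 8.78 in untreated and 4.15, 4.13, 3.91 and 4.25 in 48 h arrays (-4.68 ± 0.09). Thrombospondin 1, THBS1 (-3.76 ± 0.15), periostin, POSTN (-3.7 ± 0.09), and versican, VCAN (-3.33 ± 0.12), followed. The heparan sulfate proteoglycans GPC6 (0.71 ± 0.05, other probe set 0.29) and SDC2 (0.68 ± 0.06) and the lysyl hydroxylase PLOD1 (0.38 ± 0.06) rose, and GPC6 was also 0.6 ± 0.05 above its level at 24 h.

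Among 21 matrix proteases and their inhibitors, 14 fell and 4 rose (median -0.91). Stromelysin 1, MMP3, measured 10.04, 10.16, 10.69 and 10.32 in untreated arrays and 5.64, 6.07, 5.87 and 6.47 at 48 h. Those groups lay far apart (-4.29 ± 0.19), and MMP3 was also lower at 48 h than at 24 h (-0.7 ± 0.19, adjusted p = 0.00977). The collagenase MMP1 (-3.7 ± 0.2) and the plasminogen activators PLAU (-3.24 ± 0.17) and PLAT (-3.13 ± 0.14) fell, whereas the inhibitor TIMP3 (0.69 ± 0.05) and the membrane-bound MMP15 (0.43 ± 0.1, other probe set 0.01) and MMP17 (0.28 ± 0.06) rose. Integrins, the receptors for matrix, and laminins gave 12 falls and 1 rise among 20. The laminin receptor subunit ITGA6 fell by 4.07 ± 0.17, the collagen receptor subunit ITGA2 by 3.68 ± 0.11 and ITGA3 fell by 2.63 ± 0.1. ITGA1, another collagen receptor subunit, was the riser, by 0.82 ± 0.12, and nearly all of that appeared after 24 h (0.79 ± 0.12 against 24 h).

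YAP and TEAD targets and the contractile apparatus were low together. Of 18 tested YAP and TEAD targets, 15 fell and 1 rose, with a median of -1.52. CCN2, a secreted matrix-associated protein, measured 8.15, 8.74, 9.28 and 8.99 in untreated arrays and 3.23, 3.05, 3.15 and 2.93 at 48 h. That difference of -5.7 ± 0.17 (adjusted p = 4.42e-14) was greater than any other fall. At 48 h the values approached 2.57, the minimum of the deposited table, so the bottom of the scale limits the fold. CRIM1 (-3.82 ± 0.16), CCN1 (-3.57 ± 0.17), MYOF (-3.42 ± 0.13) and the kinase gene LATS2 (-2.96 ± 0.17) also fell, AMOTL1 rose by 0.19 ± 0.06 (0.118 under cyclic loess, adjusted p = 0.0933, and 0.126 with probe sets averaged, adjusted p = 0.0879), and the kinase gene NUAK2 (0.11 ± 0.1) did not pass. LATS1, a kinase that inactivates YAP as LATS2 does, went the other way. Its arrays read 4.08, 3.94, 4.06 and 4.07 in untreated, 3.81, 4.03, 3.85 and 3.81 at 24 h and 5.45, 5.36, 5.34 and 5.46 at 48 h. Untreated and 24 h arrays overlapped, and the rise at 48 h was 1.37 ± 0.07 against untreated and 1.53 ± 0.07 against 24 h (adjusted p = 2.14e-10). In the contractile list 18 of 26 fell and 2 rose, among them the smooth muscle genes TAGLN (-3.06 ± 0.13), ACTA2 (-2.97 ± 0.13, other probe set 0.01) and MYLK (-2.86 ± 0.09). The ubiquitous actins ACTB (-0.1 ± 0.07) and ACTG1 (-0.01 ± 0.05) did not pass, though ACTB passed with its probe sets averaged (-0.14). MYL9 rose by 0.33 ± 0.1.

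Genes of TGF-beta and BMP signalling fell in 15 of 22 cases and rose in 2 (median -0.66), and several of them fell in a late step. GREM1, a secreted BMP antagonist, went from 9.33, 9.75, 10.3 and 9.83 in untreated arrays through 7.02, 7.01, 6.77 and 6.91 at 24 h to 5.83, 5.94, 5.62 and 6.1 at 48 h. The 3 groups did not overlap. SMAD6, an intracellular inhibitor of BMP signalling, read 8.35, 8.86, 9.05 and 8.79 in untreated, 7.25, 7.58, 7.41 and 7.62 at 24 h and 5.81, 5.95, 5.76 and 6.01 at 48 h. Against 24 h it was -1.58 ± 0.11 (adjusted p = 8.92e-08), while its other probe sets gave -0.6 to 0.05 against untreated. The BMP pseudoreceptor BAMBI (-0.92 ± 0.07) and the ligand BMP2 (-0.92 ± 0.09) were lower than at 24 h as well. SMAD7 fell by 0.61 ± 0.09 (other probe set 0.05) against untreated without passing against 24 h (-0.11 ± 0.09). BMP7 (0.37 ± 0.09) and the receptor TGFBR1 (0.21 ± 0.04, other probe set 0.18) rose. In the WNT list 15 of 28 fell and 3 rose: the secreted antagonist DKK2 (-3.71 ± 0.12), the nuclear factor LEF1 (-2.96 ± 0.12) and the ligand WNT5A (-2.72 ± 0.13) fell, and the receptor ROR2 (0.71 ± 0.06), the feedback gene AXIN2 (0.44 ± 0.07) and the coreceptor LRP6 (0.42 ± 0.06, other probe sets 0.08 to 0.09) rose.

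Catecholamine genes rose in 12 of 17 cases and fell in 3 (median 0.45). SLC18A1, the vesicle transporter that loads monoamines into granules, had 8.59, 8.42, 8.38 and 8.42 in untreated and 10.31, 10.24, 10.4 and 10.33 in 48 h arrays (1.87 ± 0.05). The groups did not overlap, and 48 h did not differ from 24 h at the threshold (-0.05 ± 0.05). GCH1, which starts the synthesis of the cofactor tetrahydrobiopterin, rose by 1.15 ± 0.05, the breakdown enzyme MAOA by 0.9 ± 0.07 and the decarboxylase DDC by 0.74 ± 0.04 (other probe set 0.13). Falls were those of sepiapterin reductase, SPR (-0.53 ± 0.07), MAOB (-0.3 ± 0.06, other probe set -0.17) and the noradrenaline transporter SLC6A2 (-0.31 ± 0.05), whose other probe sets ran from -0.14 to 0.77 and so do not settle its direction.

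Receptors that bind monoamines were mostly near the dim end: 14 of 28 measured were tested, of which 4 rose and 3 fell (median 0.05, which turned to -0.01 under cyclic loess). Over all genes 36.0% rose and 21.0% fell. HTR1E, a Gi-coupled serotonin receptor, had the largest rise of all genes. Its arrays read 5.63, 5.81, 5.75 and 5.62 in untreated, 8.67, 8.6, 8.59 and 8.59 at 24 h and 9.06, 8.91, 9.07 and 8.93 at 48 h. The difference from untreated was 3.29 ± 0.06 (adjusted p = 4.02e-16), of which 0.38 ± 0.06 came after 24 h (adjusted p = 0.000281). DRD2, the dopamine receptor that risperidone blocks, went from 4.85, 4.64, 4.48 and 4.65 to 5.44, 5.57, 5.48 and 5.46, a rise by 0.83 ± 0.07. ADRA2C, an alpha-2 adrenoceptor that the drug also binds, rose by 0.95 ± 0.06 and the histamine receptor HRH3 by 0.35 ± 0.08 (other probe sets -0.04 to 0.06, and 0.103 with all averaged, adjusted p = 0.115), while the histamine receptor HRH1 fell by 2.07 ± 0.12 and HTR2B fell by 0.45 ± 0.12. HTR2A, the serotonin receptor bound most tightly by the drug, was too dim for the test, at 3.19 in both groups.

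Genes of neuronal membranes and release were largely higher. Of 30 synaptic vesicle genes 22 rose and 5 fell (median 0.42), of 20 ion channels 13 rose and 2 fell (0.46), and of 18 transmitter receptors 11 rose and 1 fell (0.4). RAB3C, a vesicle GTPase, rose by 1.27 ± 0.06, RAB3A by 1.26 ± 0.06 and synaptophysin, SYP, by 1.03 ± 0.08. CADPS, which primes dense-core vesicles, fell by 1.08 ± 0.09. KCNH1, a voltage-gated potassium channel, read 5.18, 5.42, 5.11 and 5.25 in untreated, 7.55, 7.63, 7.43 and 7.35 at 24 h and 8.26, 8.03, 8.19 and 8.18 at 48 h. Among these groups each stood above the one before it, with 2.93 ± 0.08 at 48 h against untreated and 0.68 ± 0.08 against 24 h. KCNA3 (1.26 ± 0.13) and SCN3B (1.01 ± 0.06) rose, and KCNK2 (-1.68 ± 0.1) and the sodium channel SCN9A (-1.18 ± 0.07) fell. The muscarinic receptor CHRM3 (1.91 ± 0.15), the glutamate receptor subunit GRIA4 (1.65 ± 0.09) and the ganglionic nicotinic subunits CHRNA3 (1.23 ± 0.05) and CHRNB4 (0.9 ± 0.1) rose, and GRM7 (-0.41 ± 0.08, other probe set -0.07) fell. CHRM3 and GRIA4 were also above 24 h, by 0.86 ± 0.15 and 0.61 ± 0.09.

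Granins and processing enzymes rose in 6 of 11 cases and fell in 3, with rises of SCG5 (1.03 ± 0.05), SCG3 (0.87 ± 0.08) and CHGB (0.85 ± 0.05) beside the fall of SCG2. Among 17 neuropeptide genes 6 rose and 3 fell, near the 36.0% and 21.0% of all genes. The neuropeptide Y receptor NPY2R went from 4.08, 4.4, 4.21 and 3.93 to 6.78, 6.71, 6.69 and 6.56 (2.53 ± 0.1), whereas the peptide gene NPY itself did not pass (-0.08 ± 0.07). OPRM1, the mu opioid receptor, was a late riser. It had 4.21, 4.56, 5.11 and 4.86 in untreated, 5.07, 5.1, 5.23 and 5.21 at 24 h and 6.75, 6.4, 6.12 and 6.22 at 48 h (1.22 ± 0.15 against 24 h). The peptide genes NTS (-2.81 ± 0.11) and VIP (-1.26 ± 0.11) fell. CALCB, a calcitonin gene-related peptide, was 0.21 ± 0.07 against untreated (0.0528 under cyclic loess, adjusted p = 0.443, other probe set 0.11) and -0.92 ± 0.07 against 24 h, at which time it had read 7.29, 7.38, 7.4 and 7.32.

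Of 23 genes of neurites and the axon cytoskeleton 14 rose and 5 fell (median 0.34). Tau, MAPT, rose by 1.91 ± 0.06, STMN4 by 1.23 ± 0.05 and ATL1 by 1.03 ± 0.05, while DPYSL3 fell by 2.48 ± 0.1 and doublecortin, DCX, by 0.55 ± 0.05. Axon guidance genes split, 8 up and 12 down of 27, with a median of 0.0025 that turned to -0.15 under cyclic loess. The repellent SLIT2 (-4.04 ± 0.09) and the semaphorin receptor NRP1 (-3.24 ± 0.09) fell, and the netrin receptor UNC5C (1.09 ± 0.07) and the ephrin EFNB2 (0.86 ± 0.06) rose. Of 25 growth factor receptors and their ligands, 7 rose and 11 fell. GFRA3, the artemin receptor, rose by 2.07 ± 0.09, of which 0.91 ± 0.09 came after 24 h, and the neuroblastoma kinase gene ALK rose by 1.17 ± 0.08. MET (-2.14 ± 0.09), PTN (-1.9 ± 0.07) and RET (-0.55 ± 0.05, other probe sets 0.08 to 0.09) fell. In the cadherin family 6 fell and 4 rose of 11 tested: CDH11 (-2.63 ± 0.08) and CDH2 (-0.5 ± 0.06) fell and PCDH1 (1.48 ± 0.08) rose.

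The other largest rises were those of NELL1 (3.04 ± 0.09), EPB41L4B (2.7 ± 0.04), the heparan sulfate sulfotransferase HS6ST2 (2.39 ± 0.05), the synaptic proteins CLSTN2 (2.37 ± 0.07) and CNTNAP4 (2.34 ± 0.11), ANKRD44 (2.19 ± 0.12), the synapse organiser CBLN2 (2.15 ± 0.09) and the glutamate transporter SLC1A1 (2.07 ± 0.1). NELL1 read 4.13, 3.96, 3.72 and 3.79 in untreated and 6.98, 6.72, 7.08 and 6.99 at 48 h, without overlap. For several of these genes other probe sets rose less, with 0.2 for SLC1A1, which did not pass, 0.42 for ANKRD44, 0.52 for CBLN2 and 1.36 to 1.98 for NELL1. Other falls among the 12 largest were those of the transcription factor FOXD1 (-4.94 ± 0.09), TMEM200A (-4.47 ± 0.12), the protease inhibitor SERPINB7 (-4.38 ± 0.14), SRPX (-4.26 ± 0.11) and MLPH (-4.22 ± 0.14). Another probe set of TMEM200A gave -1.76 and those of MLPH -1.84 to -1.59.

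**Figure D3:**
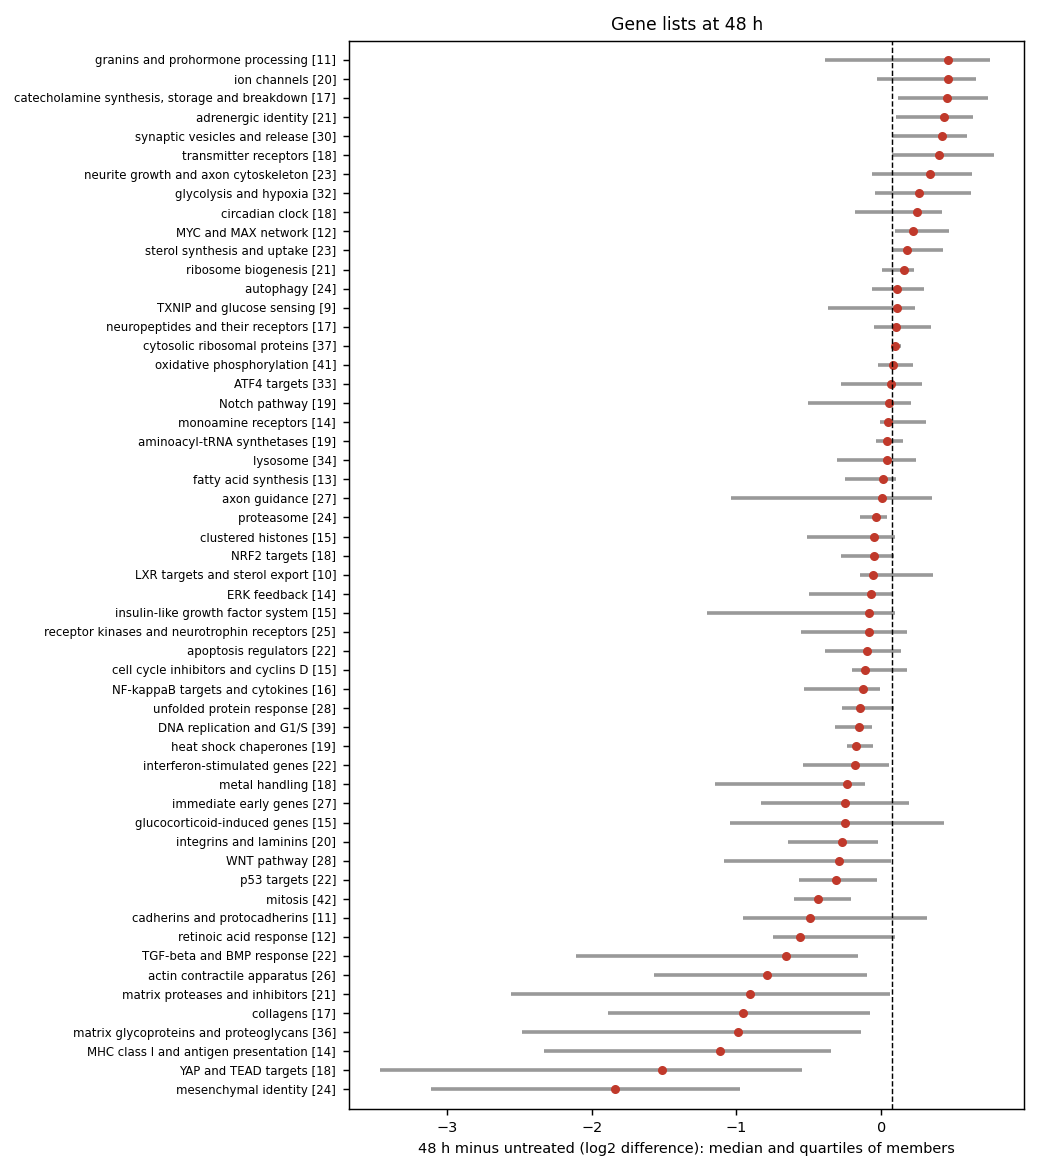
Median difference at 48 h minus untreated (log2, points) with the quartiles of the tested members (bars) for each of the 55 gene lists, with the number of members tested in brackets. The dashed line is the median over all genes, 0.075, and mesenchymal identity lies lowest at -1.84.

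Mitosis genes were lower at 48 h: 35 of 42 fell and 0 rose, with a median of -0.44, where 21.0% of all genes fell. The proliferation antigen gene MKI67 read 9.77, 9.8, 9.55 and 9.75 in untreated arrays and 8.83, 8.84, 9.2 and 9.25 at 48 h (-0.69 ± 0.09). CDC20, an activator of the ligase that ends metaphase, had 10.13, 10.15, 10.27 and 10.25 in untreated and 9.5, 9.47, 9.43 and 9.53 at 48 h. Its groups did not overlap, and its difference was -0.72 ± 0.05. ANLN (-1.08 ± 0.08), ASPM (-0.87 ± 0.07) and HMMR (-0.81 ± 0.05) had the largest falls, and CDK1 (-0.02 ± 0.06) and TOP2A (-0.06 ± 0.04) did not pass. TOP2A did pass with its probe sets averaged (-0.12) and under cyclic loess (-0.11). Against 24 h, 12 of the 42 were lower and 1 was higher.

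Genes of DNA replication and the G1/S step moved late. Against untreated 21 of 39 fell and 2 rose, with a median of -0.15, and against 24 h 30 of 39 were lower and 0 higher, with a median of -0.29, where 15.1% of all genes were lower. MCM6, a subunit of the replicative helicase, read 9.86, 9.89, 10.01 and 10.03 in untreated, 10.2, 10.02, 10.07 and 10.0 at 24 h and 9.66, 9.51, 9.5 and 9.56 at 48 h. The 48 h arrays were the lowest, by 0.39 ± 0.05 under untreated and by 0.52 ± 0.05 under 24 h on the log2 scale. Cyclin E1, CCNE1, did not pass against untreated (-0.12 ± 0.06) but was -0.68 ± 0.06 against 24 h. Thymidine kinase, TK1, fell by 0.91 ± 0.06 and ribonucleotide reductase, RRM2, by 0.6 ± 0.05, whereas the licensing factor CDT1 (0.26 ± 0.07, or 0.148 under cyclic loess, adjusted p = 0.0587) and the primase PRIM1 (0.34 ± 0.05) rose. Of 15 clustered histone genes 7 fell and 2 rose, with H2BC12 lowest (-1.01 ± 0.06, other probe set -0.16), and histone genes are near-identical copies whose probes may cross-react.

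Promoters of both groups are shown because their members moved together, from RefSeq on GRCh38.p14, each from 250 bases to 1 base before the start of the gene, 5′ to 3′ on its own strand. In CDC20 (chr1:43358731-43358980, plus strand) capitals mark TTTGAA, the letters of the cell cycle homology region, and CCAAT, on either strand, with TTTGAA at -65 to -60 and at -178 to -173 and CCAAT at -100 to -96 and at -55 to -51 from the start. In MCM6 (chr2:135876444-135876693, minus strand) they mark letters of E2F sites, in overlapping pairs between -152 and -141 and between -90 and -79.
CDC20: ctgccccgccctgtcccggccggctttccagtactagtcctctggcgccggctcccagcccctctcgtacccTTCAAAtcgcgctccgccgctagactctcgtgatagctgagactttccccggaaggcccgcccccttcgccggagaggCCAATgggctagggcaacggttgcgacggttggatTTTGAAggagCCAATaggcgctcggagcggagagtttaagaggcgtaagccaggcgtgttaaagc
MCM6: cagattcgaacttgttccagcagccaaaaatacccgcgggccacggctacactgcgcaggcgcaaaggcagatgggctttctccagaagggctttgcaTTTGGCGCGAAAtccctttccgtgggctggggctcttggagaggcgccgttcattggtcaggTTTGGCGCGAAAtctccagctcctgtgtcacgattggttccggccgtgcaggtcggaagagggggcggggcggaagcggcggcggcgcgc
TTTGAA stood in 25 of 36 mitosis promoters (69.4%) and in 10.2% of 11147 promoters of the same window, from 250 bases before to 50 bases after the start. CCAAT stood in 77.8% of them and in 36.4% of all. The E2F letters TTTGGCGC, TTTCGCGC or TTTCCCGC stood in 18 of 33 replication promoters (54.5%) and in 4.35% of all. Both strands were searched, and a match is a description of letters. Shares of all promoters, here and below, are shares of these 11147, which do not cover every gene tested. The search held promoters of 36 mitosis genes, where 42 were tested, and of 33 replication genes, where 39 were tested.

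Among inhibitors of the cycle and D cyclins, 5 of 15 rose and 4 fell (3 and 7 under cyclic loess), where 36.0% and 21.0% of all genes did. CDKN1C, a Cip/Kip inhibitor, rose by 1.41 ± 0.06 and CDKN2D by 0.38 ± 0.08, while CDKN1A, the inhibitor induced by p53, fell by 1.21 ± 0.09. CDKN1A read 10.45, 10.55, 10.56 and 10.51 in untreated and 9.24, 9.28, 9.16 and 9.55 at 48 h. Of 22 p53 targets 13 fell and 4 rose (median -0.31), and 12 were lower than at 24 h against 2 higher. The death receptor FAS fell by 2.28 ± 0.12 and TP53I3 by 1.2 ± 0.07, and CCNG1 rose by 0.51 ± 0.08. MDM2 did not pass (-0.06 ± 0.08), but did with its probe sets averaged (-0.12) and under cyclic loess (-0.21). Apoptosis regulators split with 9 falls and 6 rises of 22. Caspase 8, CASP8, fell by 2.84 ± 0.1 (other probe set -0.09), and PMAIP1, a BH3-only killer protein, fell by 0.92 ± 0.06 with -0.9 ± 0.06 against 24 h. BCL2L1, which protects cells, rose by 0.44 ± 0.05, and so did CASP9, by 0.57 ± 0.06 (other probe set 0.11).

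In the MYC and MAX network 8 of 12 rose and 0 fell. MYCN, the oncogene of neuroblastoma, went from 7.08, 7.23, 6.98 and 6.8 to 8.05, 8.2, 8.24 and 7.9 (1.08 ± 0.1), and MYC rose by 0.4 ± 0.05. The antagonists MXD1 (0.72 ± 0.06) and MXI1 (0.66 ± 0.05) rose too, and MXD4 was -0.49 ± 0.06 against 24 h. Against untreated MXD4 did not pass. There it was 0.3 with its probe sets averaged and -0.27 under cyclic loess, so its direction is not settled.

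The steepest step between 24 and 48 h was that of TXNIP, an arrestin-like protein that curbs glucose uptake and binds thioredoxin. Its arrays read 10.05, 10.0, 9.88 and 10.0 in untreated, 10.25, 10.3, 10.32 and 10.28 at 6 h, 10.15, 10.17, 10.11 and 10.23 at 24 h and 6.22, 6.22, 6.65 and 6.43 at 48 h. At 48 h every array lay far below every array of the other 3 groups, which differed little among themselves. The difference was -3.6 ± 0.08 against untreated (adjusted p = 1.3e-15) and -3.79 ± 0.08 against 24 h (adjusted p = 2.91e-15). Its 4 other probe sets fell as well, by values of -3.68 to -2.66 against untreated. ARRDC4, a relative that also curbs glucose uptake, read 7.87, 8.06, 8.07 and 7.93 in untreated, 8.55, 8.58, 8.55 and 8.44 at 24 h and 6.63, 6.59, 6.58 and 6.56 at 48 h. It had been above untreated at 24 h and was below it at 48 h (-1.39 ± 0.05 against untreated, -1.94 ± 0.05 against 24 h). The related arrestin ARRDC3 went the other way, with 7.34, 7.33, 7.43 and 7.37 in untreated, 7.33, 7.3, 7.31 and 7.43 at 24 h and 8.36, 8.41, 8.41 and 8.33 at 48 h. TXNIP and ARRDC4 are known targets of the glucose-sensing factors MLXIP and MLX, and here MLXIP was -0.37 ± 0.06, with other probe sets from -0.34 to 0.57, and MLX was 0.24 ± 0.06.

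Both promoters are shown because these genes made the largest falls of the list of 9, again from 250 bases to 1 base before the start on GRCh38.p14. In TXNIP (chr1:145996580-145996829, minus strand) capitals mark a pair of CACGNG boxes 5 bases apart, at -88 to -72, an arrangement searched for after the values were seen. In ARRDC4 (chr15:97960453-97960702, plus strand) they mark CACGTG at -210 to -205.
TXNIP: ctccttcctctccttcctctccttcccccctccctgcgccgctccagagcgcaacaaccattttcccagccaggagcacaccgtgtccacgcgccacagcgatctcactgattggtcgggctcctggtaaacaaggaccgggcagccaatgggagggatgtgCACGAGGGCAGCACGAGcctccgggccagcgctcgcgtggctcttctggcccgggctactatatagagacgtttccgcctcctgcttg
ARRDC4: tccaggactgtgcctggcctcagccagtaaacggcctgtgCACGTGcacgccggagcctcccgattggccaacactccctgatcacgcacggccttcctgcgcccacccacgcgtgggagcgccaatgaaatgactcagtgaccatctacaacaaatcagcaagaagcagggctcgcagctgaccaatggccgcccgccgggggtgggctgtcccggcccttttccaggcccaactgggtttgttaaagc
The spaced pair stood in 17 of 11147 promoters (0.153%), and in 1 of the 9 of the list, that of TXNIP. CACGTG alone stood in 4 of the 9 (44.4%) and in 9.73% of all.

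Immediate early genes, which growth signals switch on within minutes, gave 14 falls and 6 rises of 27 (median -0.25). EGR1 read 8.66, 8.38, 8.8 and 9.03 in untreated, 8.19, 8.13, 7.97 and 8.21 at 24 h and 6.1, 5.79, 5.71 and 6.08 at 48 h. The 48 h arrays were apart from both, with -2.8 ± 0.12 against untreated and -2.21 ± 0.12 against 24 h (adjusted p = 3.17e-09). FOS fell by 0.76 ± 0.11 and KLF10 by 0.63 ± 0.08, each lower than at 24 h too (-0.34 ± 0.11 and -0.62 ± 0.08). JUN fell by 0.75 ± 0.07 but was 0.49 ± 0.07 higher than at 24 h, and the neuronal gene ARC rose by 0.94 ± 0.11, with 0.58 ± 0.11 against 24 h. ERK feedback genes fell in 6 of 14 cases and rose in 2. PHLDA1 (-3.64 ± 0.08), SPRY1 (-1.83 ± 0.09) and DUSP5 (-1.34 ± 0.12) fell, and SPRY2 (0.42 ± 0.04) and SPRY4 (0.4 ± 0.06) rose. SGK1, a kinase induced by glucocorticoids and salt stress, read 10.22, 10.37, 10.68 and 10.48 in untreated, 9.65, 9.69, 9.68 and 9.66 at 24 h and 8.4, 8.33, 8.27 and 8.55 at 48 h. It thus fell further after 24 h (-1.28 ± 0.08), while other genes that glucocorticoids induce, such as KLF9 (1.08 ± 0.06) and TSC22D3 (0.64 ± 0.05), rose against untreated, and in that list 9 of 15 fell and 5 rose.

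**Figure D4:**
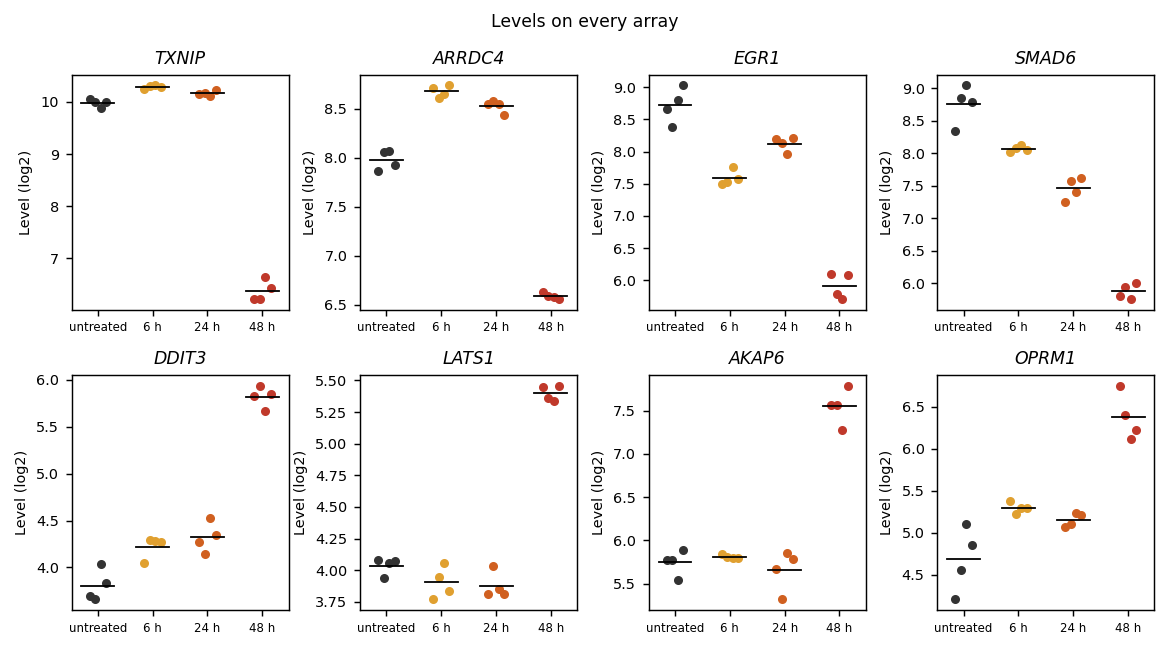
Level on every array (log2, points) and group mean (line) of 8 genes in untreated cells and after 6, 24 and 48 h, n = 4 arrays each. TXNIP, ARRDC4, EGR1 and SMAD6 were lowest at 48 h, and DDIT3, LATS1, AKAP6 and OPRM1 were highest at 48 h.

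DDIT3, the stress factor CHOP, was among the late rises. It had 3.7, 3.66, 4.04 and 3.83 in untreated, 4.27, 4.14, 4.53 and 4.35 at 24 h and 5.83, 5.94, 5.67 and 5.85 at 48 h, and its difference was 2.02 ± 0.09 against untreated and 1.5 ± 0.09 against 24 h (adjusted p = 1.62e-08). Its other probe set gave 1.8 against untreated. Most other targets of ATF4, the factor of the integrated stress response, were lower at 48 h than at 24 h: 22 of 33 were lower and 4 higher, with a median of -0.24, where 15.1% and 13.5% of all genes were. The amino acid transporters SLC7A5 (-0.85 ± 0.07) and SLC1A4 (-0.78 ± 0.08), SESN2 (-0.77 ± 0.06), asparagine synthetase, ASNS (-0.47 ± 0.05), and PHGDH (-0.51 ± 0.05), which starts serine synthesis, were lower than at 24 h. Against untreated the list split into 13 rises and 11 falls with a median of 0.068, which turned to -0.02 under cyclic loess. STC2 (1.23 ± 0.09) and ATF4 itself (0.44 ± 0.04) rose, and SLC7A5 (-0.46 ± 0.07, other probe set 0.19) and CEBPB (-0.4 ± 0.11) fell. The cystine transporter SLC7A11 was -1.42 ± 0.13, with other probe sets from -2.42 to 0.27. The letters TGATGNAAN of the site bound by ATF4 with C/EBP proteins stood in 5 of 28 promoters of the list (17.9%) and in 1.92% of all.

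The unfolded protein response list fell in 14 of 28 cases and rose in 5 (16 and 2 under cyclic loess), and 9 were lower and 0 higher than at 24 h. EDEM1, of glycoprotein disposal, fell by 0.87 ± 0.08 (other probe sets -0.01 to 0.11), the chaperone HSPA5 by 0.32 ± 0.07 and SDF2L1 by 0.33 ± 0.05, while the cochaperone DNAJB9 rose by 0.59 ± 0.06 and XBP1 did not pass (0.03 ± 0.06). Heat shock genes gave 10 falls and 0 rises of 19, led by BAG3 (-2.54 ± 0.11) and HSPB1 (-1.04 ± 0.05). HSPA1A fell by 0.35 ± 0.05 and HSPA1B by 0.43 ± 0.05, near-identical copies that probes may not part, and 9 of the 19 were lower than at 24 h. Proteasome genes fell in 8 of 24 cases and rose in 3, with PSMD1 lowest (-0.49 ± 0.04). Targets of the oxidative stress factor NRF2 fell in 7 of 18 cases and rose in 4, with NQO1 (-1.23 ± 0.06) and HMOX1 (-1.07 ± 0.22) down and GCLC (0.45 ± 0.07) up. GLRX, a glutaredoxin, was among the largest late falls (-1.02 ± 0.09 against 24 h, -1.5 ± 0.09 against untreated). Metal handling genes fell in 10 of 18 cases and rose in 1. The metallothioneins MT2A (-2.8 ± 0.09), MT1E (-2.38 ± 0.12) and MT1X (-1.39 ± 0.06) fell, members of a family of near copies, and the zinc exporter SLC30A1 fell by 0.88 ± 0.06 (other probe set 0.02).

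Sterol synthesis and uptake genes were higher than in untreated cells in 14 of 23 cases and lower in 2 (median 0.18), counts that became 9 and 5 under cyclic loess. TM7SF2 (0.63 ± 0.07), the regulator gene SREBF2 (0.6 ± 0.05) and SC5D (0.55 ± 0.06) had the largest rises, and NSDHL (-0.18 ± 0.07) and FDPS (-0.15 ± 0.05) fell. NSDHL did not pass in a fit of the 8 arrays compared (adjusted p = 0.0833) or when 1 of 6 arrays was left out (untreated replicates 2 to 4, 48 h replicates 1 to 3; adjusted p = 0.0523 to 0.14), and FDPS did not pass without 48 h replicate 4 (adjusted p = 0.0556). INSIG1, which holds back sterol synthesis, read 9.31, 9.4, 9.35 and 9.22 in untreated, 9.83, 9.91, 9.87 and 9.9 at 24 h and 9.56, 9.51, 9.58 and 9.34 at 48 h. It was 0.18 ± 0.06 above untreated (0.0962 under cyclic loess, adjusted p = 0.143) and -0.38 ± 0.06 against 24 h, and in the list 10 genes were lower and 1 higher than at 24 h. The letters TCACNCCAC of the sterol element stood in 1 of 21 promoters (4.76%) and in 1.1% of all. Sterol exporters split. ABCG1 went from 5.0, 5.1, 4.67 and 5.0 to 7.02, 7.24, 7.08 and 7.14 (2.18 ± 0.09) and ABCA1 from 5.73, 4.97, 4.6 and 4.8 to 3.84, 3.88, 3.93 and 3.87 (-1.15 ± 0.16), so that these exporters moved in opposite directions, with other probe sets of ABCG1 at 0.16 to 2.49. Apolipoprotein E, APOE, fell by 0.58 ± 0.16. Fatty acid genes gave 3 rises and 4 falls of 13 (2 and 6 under cyclic loess), with ME1 (0.39 ± 0.05) highest and FADS3 (-0.53 ± 0.13) lowest.

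Lysosome genes gave 10 rises and 10 falls of 34 (9 and 14 under cyclic loess), where 36.0% of all genes rose and 21.0% fell. The proton pump subunit ATP6V1B2 rose by 0.59 ± 0.05 and MAN2B1 by 0.48 ± 0.11, and LAMP2 fell by 0.71 ± 0.07 and CTSA by 0.67 ± 0.07. NPC1, the cholesterol exporter of the lysosome, did not pass against untreated (0.17 ± 0.08) and was 0.5 ± 0.08 against 24 h. Against untreated it passed with its probe sets averaged (0.13) and in a fit of the 8 arrays compared (0.165). Autophagy genes rose in 10 of 24 cases and fell in 5 (median 0.11), near the 36.0% and 21.0% of all genes. MAP1LC3A (1.1 ± 0.11), ATG14 (0.88 ± 0.07) and GABARAPL1 (0.67 ± 0.09) rose, while the cargo receptor SQSTM1 fell by 0.34 ± 0.04.

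Glycolysis and hypoxia genes rose in 21 of 32 cases and fell in 3 (median 0.26), or 19 and 7 under cyclic loess. The pyruvate dehydrogenase kinase gene PDK1 rose by 1.13 ± 0.05, ALDOC by 1.07 ± 0.06 and ENO2 by 0.99 ± 0.07. VEGFA rose by 0.96 ± 0.06 and the glucose carrier SLC2A1 by 0.75 ± 0.04. PFKFB3 fell by 0.39 ± 0.05 (other probe set 0.2, and -0.0406 with both averaged, adjusted p = 0.499), and PFKFB4 rose by 0.66 ± 0.07 yet was -0.52 ± 0.07 against 24 h. The carbonic anhydrase CA12, a hypoxia target by list, fell by 3.12 ± 0.12. Subunits of oxidative phosphorylation rose in 18 of 41 cases and fell in 4 (15 and 7 under cyclic loess), where 36.0% of all genes rose and 21.0% fell. Their changes were small, from SDHD (-0.26 ± 0.05) to UQCRC2 (0.42 ± 0.04), and their median of 0.085 was near the 0.075 over all genes. Ribosomal proteins rose in 16 of 37 cases and fell in 0, and their median of 0.093 was also near that over all genes. With quantile normalization applied again 5 rose, and none differed from 24 h at the threshold. Ribosome biogenesis factors rose in 11 of 21 cases and fell in 2 (7 and 4 under cyclic loess), and 8 were above 24 h, among them NOB1 (0.41 ± 0.05) and POLR1B (0.31 ± 0.06). Aminoacyl-tRNA synthetases rose in 6 of 19 cases and fell in 3, with QARS1 (0.39 ± 0.04) highest, where 36.0% of all genes rose and 21.0% fell.

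Immune genes of SK-N-SH cells were lower. Of 14 MHC class I and antigen presentation genes 11 fell and 1 rose (median -1.11). TAP1, the peptide transporter, read 6.51, 6.61, 6.82 and 6.82 in untreated and 3.96, 4.06, 3.87 and 4.09 at 48 h (-2.7 ± 0.09), with no overlap. The immunoproteasome subunits PSMB8 (-2.67 ± 0.11) and PSMB9 (-2.49 ± 0.13) fell, as did HLA-E (-1.86 ± 0.11), HLA-C (-1.05 ± 0.06), HLA-B (-0.7 ± 0.08) and B2M (-0.54 ± 0.05), where HLA genes share sequence that probes may not part. PSME1 rose by 0.17 ± 0.05 (0.107 under cyclic loess, adjusted p = 0.0645). Of 22 interferon-stimulated genes 11 fell and 4 rose. IFIT1 (-1.62 ± 0.1), IFI44 (-1.6 ± 0.09) and ISG15 (-1.29 ± 0.09) fell, and IRF7 (0.52 ± 0.08) rose. NF-kappaB targets gave 7 falls and 0 rises of 16, namely IER3 (-3.08 ± 0.1), VCAM1 (-2.86 ± 0.14), CCL2 (-2.46 ± 0.14), LIF (-0.57 ± 0.11), RELB (-0.52 ± 0.12), ICAM1 (-0.34 ± 0.08) and NFKB1 (-0.23 ± 0.06).

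Insulin-like growth factor genes fell in 7 of 15 cases and rose in 2, with the RNA-binding IGF2BP2 (-3.64 ± 0.14) and the protease PAPPA (-3.04 ± 0.11) lowest. Notch genes split with 6 each way of 19 (4 rises and 7 falls under cyclic loess). The ligand JAG1 (-1.91 ± 0.08) and the coactivator MAML2 (-2.96 ± 0.1, other probe set 0.07) fell, and DTX1 (0.8 ± 0.08) and HES6 (0.56 ± 0.05) rose. Retinoic acid genes fell in 7 of 12 cases and rose in 1, with TGM2 (-3.7 ± 0.16) and HOXB2 (-2.63 ± 0.14) lowest and RARA (0.2 ± 0.05, or 0.0506 under cyclic loess, adjusted p = 0.442) up. Clock genes rose in 10 of 18 cases and fell in 5. DBP, an output factor of the clock, rose by 1.23 ± 0.09 and was 0.48 ± 0.09 against 24 h, and HLF rose by 0.8 ± 0.07, while BHLHE41 (-2.2 ± 0.13) and NPAS2 (-1.4 ± 0.1) fell. Core members BMAL1 (-0.2 ± 0.07, other probe sets -0.18 to -0.1) and PER2 (-0.42 ± 0.12) fell, of which BMAL1 did not pass in a fit of the 8 arrays compared (adjusted p = 0.0767) or without untreated replicate 2 or 3 or 48 h replicate 3 (adjusted p = 0.071 to 0.116), and PER2 was -0.0145 with its probe sets averaged (adjusted p = 0.773), and CLOCK did not pass (-0.13 ± 0.07).

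Whether the 48 h levels differed from the earlier times was tested in the same fit. Against 24 h 3907 genes differed (28.6%), of which 17 were at least 2-fold higher and 7 at least 2-fold lower, and against 6 h 4598 differed (33.6%), with 2279 higher (16.7%) and 2319 lower (17.0%). Of the genes that differed from untreated at 48 h, 4841 did not differ from 24 h, 1509 were above both untreated and 24 h, and 1095 were below both. A turn back was seen in 259 genes above untreated and below 24 h and in 88 below untreated and above 24 h, and 956 differed from 24 h but not from untreated. Several list medians had moved the same way by 6 h. At 6, 24 and 48 h mesenchymal identity stood at -1.42, -1.54 and -1.84 against untreated. YAP and TEAD targets stood at -1.43, -1.43 and -1.52, and catecholamine genes at 0.41, 0.48 and 0.45. DNA replication genes (0.115, 0.11 and -0.15) and ATF4 targets (0.26, 0.32 and 0.068) changed late instead. AKAP6, a kinase anchoring protein, was the largest late rise. It read 5.78, 5.78, 5.54 and 5.89 in untreated, 5.67, 5.32, 5.86 and 5.79 at 24 h and 7.56, 7.57, 7.28 and 7.79 at 48 h. Only the 48 h arrays stood apart (1.89 ± 0.11 against 24 h), and its other probe set gave 0.25 against untreated. FLRT1 (1.61 ± 0.1), ANKRD44 (1.54 ± 0.12), AVL9 (1.37 ± 0.11), GPCPD1 (1.37 ± 0.09), DMXL1 (1.32 ± 0.1), ZNF844 (1.32 ± 0.1) and WDR33 (1.29 ± 0.08) were the other late rises of the 10 largest. Other probe sets of the same gene did not always follow against untreated: those of DMXL1 gave -0.27 to -0.15 without passing, beside 1.31 ± 0.1, and those of WDR33 gave -0.55 to 0.9 beside 1.62 ± 0.08. The falls among the 10 largest are all named above.

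**Figure D5:**
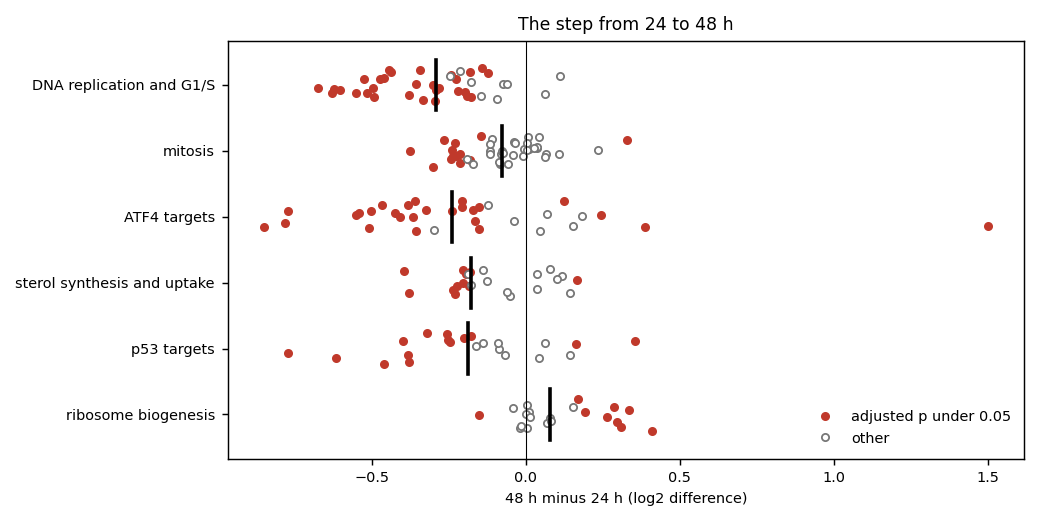
Difference at 48 h minus 24 h (log2, horizontal axis) for every tested member (points) of 6 gene lists, filled where the adjusted p was under 0.05, with the list median as a bar. DNA replication and ATF4 targets lie mostly below 0, with medians of -0.29 and -0.24.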

How the data were processed

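Total RNA of 16 samples of SK-N-SH cells, 4 in each of 4 groups, was hybridised to U219 arrays. The deposited log2 values per probe set came from robust multi-array average (RMA), per the submitters' processing notes, with its version not given in the sources used here. That method equalises the distributions of all arrays, so a change in total RNA per cell cannot be seen.

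Of 49386 probe sets, 45253 had a single symbol in the platform annotation. Each of 18239 genes took its probe set of highest mean over the 16 arrays, and the lowest 25% of genes (means under 3.65) were left out. Tests used lmFit and eBayes of limma 3.58.1 (R 4.3.3), two-sided, on the 16 arrays together, with Benjamini-Hochberg adjustment within each contrast. Values after ± are standard errors unless given as SD. The fit was also run on simulated arrays with independent normal values and few changed genes. That setting differs from these data, so the run does not show how reliable the calls are.

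The comparison, its 55 gene lists, 7 marker lists and alternatives were chosen with earlier results of these data known, so list counts are descriptions without a list test. Named were the 12 largest rises and falls with arrays outside the untreated range, up to 3 rises and 3 falls of each list with further members, the 10 largest differences each way against 24 h, and a fixed set of genes. Some genes of that set are not analysed here. Further members were chosen after their values were seen. Alternatives covered the choice of probe set, the filter, scaling, variance model, array weights, a replicate block, thresholds and each array left out. Replicate numbers did not pair the samples by the labels.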

Additional observations from a re-analysis of the deposited data

Results flagged for a closer look

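The response at 48 h differed from that at the earlier times by a test of the difference itself: in limma 3907 genes differed between 48 h and 24 h, and 4598 between 48 h and 6 h. These contrasts compare the times directly, in the same fit of 16 arrays, whose variance the untreated arrays enter. With the 8 arrays compared alone, 1881 genes were higher and 2120 lower than at 24 h. Of the genes named in the text, those at least 2-fold above 24 h were AKAP6 (1.89), FLRT1 (1.61), ANKRD44 (1.54), LATS1 (1.53), DDIT3 (1.5), AVL9 (1.37), GPCPD1 (1.37), DMXL1 (1.32), ZNF844 (1.32), WDR33 (1.29), OPRM1 (1.22) and ARRDC3 (1.04). Those at least 2-fold below 24 h were TXNIP (-3.79), EGR1 (-2.21), ARRDC4 (-1.94), SMAD6 (-1.58), SGK1 (-1.28), GREM1 (-1.06) and GLRX (-1.02).

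Some arrays lay apart from the other 3 of their group. Over the levels of the genes named in the text, Dixon's test at the 95% level picked out 22 of 606 groups of 4 arrays, where chance alone picks about 1 in 20. Of these 9 were 48 h replicate 4, and without that array 4682 genes were higher and 2930 lower than untreated. The 48 h replicate 1 lay below the other 3 arrays for FOSL2 (5.05 against 5.41 to 5.45). The 48 h replicate 2 lay below the other 3 arrays for HMOX1 (4.0 against 4.29 to 4.3) and LEF1 (3.03 against 3.05 to 3.05). The 48 h replicate 3 lay above the other 3 arrays for IFI44 (3.93 against 3.62 to 3.64). The 48 h replicate 4 lay above the other 3 arrays for ADRA2C (7.55 against 7.32 to 7.34), BMP2 (4.5 against 4.18 to 4.22), COL5A1 (6.92 against 6.54 to 6.59), ISL1 (11.73 against 11.53 to 11.55), KLF13 (8.59 against 8.49 to 8.5) and SYP (8.56 against 8.18 to 8.23) and below the other 3 arrays for APOE (4.94 against 5.53 to 5.64), ITGA1 (5.72 against 6.16 to 6.23) and PSMB9 (3.7 against 3.9 to 3.91). Untreated replicate 1 lay below the other 3 arrays for CHGB (9.52 against 9.75 to 9.77), NSDHL (8.2 against 8.43 to 8.45), SLC7A11 (5.88 against 6.48 to 6.53) and VIM (13.16 against 13.34 to 13.35). Untreated replicate 2 lay below the other 3 arrays for LATS1 (3.94 against 4.06 to 4.08). Untreated replicate 3 lay below the other 3 arrays for GFRA3 (4.07 against 4.45 to 4.52) and TOP2A (11.36 against 11.44 to 11.45). Untreated replicate 4 lay above the other 3 arrays for MXD4 (7.3 against 7.21 to 7.22) and below the other 3 arrays for MMP15 (3.67 against 3.76 to 3.77).

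Probe sets with no gene symbol or with several were outside the comparison. Of 4040 such probe sets, 2445 passed the same filter, and at 48 h against untreated 32 were at least 2-fold higher and 42 at least 2-fold lower at an adjusted p under 0.05 in limma. Their genes are not named here.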

How the results depend on the processing

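Alternatives were fixed with earlier results of these data known. Counts moved by over 1.5 times in these cases. With a required change of 1.5-fold, 473 genes were higher and 720 lower at 48 h than untreated, 19 higher and 9 lower than at 24 h, and 38 higher and 22 lower than at 6 h. With probe sets of a gene averaged, 144 were at least 2-fold higher than untreated, 6 higher and 4 lower by as much than at 24 h, and 14 higher and 13 lower than at 6 h. With the dimmer 50% left out, and so fewer genes tested, 340 were at least 2-fold lower than untreated, 9 at least 2-fold higher than at 24 h and 23 than at 6 h. At an adjusted p of 0.01, 1213 were higher and 1226 lower than at 24 h, and 1460 lower than at 6 h. Leaving out each array in turn gave, against untreated, 4568 to 4885 higher, 2704 to 3027 lower, 212 to 249 at least 2-fold higher and 597 to 633 at least 2-fold lower, against 24 h 1601 to 1742 higher, 1702 to 2114 lower, 15 to 19 at least 2-fold higher and 5 to 7 at least 2-fold lower, and against 6 h 2024 to 2130 higher, 1963 to 2307 lower, 35 to 41 at least 2-fold higher and 18 to 22 at least 2-fold lower. Of calls against untreated 63.1% were rises, and 47.4% under cyclic loess. The replicate number as a block gave 4947 higher and 2882 lower genes against untreated. It is no pairing by the labels: same-numbered arrays correlated between -0.152 and 0.181 in their deviations from the group means over the 24 pairs of all groups, 8 of them over 0.1. The 72 pairs of arrays with other numbers ran from -0.2855 to 0.2623, with 15 over 0.1.

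Of 285 named genes past the threshold against untreated, 177 kept call and direction in every alternative that tested them. The other 108 were lost when a change of 1.5-fold was required. Genes that the filter of an alternative left out, such as the dimmer 50%, were not judged in it. With probe sets averaged COL6A1 became 0.035, MLXIP 0.0856, SLC6A2 0.105, NOTCH3 -0.2138 and MXD4 0.3, each of the opposite sign to the probe set used, and AMOTL1 (0.13), HRH3 (0.1), PER2 (-0.01), PFKFB3 (-0.04) and TIE1 (0.04) lost their call. Under cyclic loess AMOTL1 (0.12), CALCB (0.05), CDT1 (0.15), HAND2 (0.1), INSIG1 (0.1), PSME1 (0.11), RARA (0.05) and TIE1 (0.14) lost theirs, in a fit of the 8 arrays compared BMAL1 (-0.2), HAND2 (0.13), INSIG1 (0.18) and NSDHL (-0.18), with medians subtracted HAND2 (0.11) and with array weights AMOTL1 (0.14) and TIE1 (0.15). Without 1 array these lost their call: BMAL1 (adjusted p 0.071 to 0.116 without untreated replicate 2 or 3 or 48 h replicate 3), FDPS (adjusted p 0.0556 without 48 h replicate 4), HAND2 (adjusted p 0.0567 to 0.0695 without untreated replicate 3 or 48 h replicate 4), INSIG1 (adjusted p 0.0525 without untreated replicate 4), NSDHL (adjusted p 0.0523 to 0.14 without untreated replicate 2 or 3 or 4 or 48 h replicate 1 or 2 or 3) and TIE1 (adjusted p 0.0571 to 0.07 without untreated replicate 1 or 3 or 48 h replicate 1). Others passed without 1 array: CCNE1 (adjusted p 0.0241 without untreated replicate 1), CLOCK (adjusted p 0.0131 without 48 h replicate 3), ELK4 (adjusted p 0.0258 without untreated replicate 3), MDM2 (adjusted p 0.0354 without untreated replicate 1), MXD4 (adjusted p 0.0369 to 0.0409 without 48 h replicate 2 or 4), NPY (adjusted p 0.0286 without untreated replicate 1) and SLC1A4 (adjusted p 0.0351 without untreated replicate 3). With probe sets averaged ACTB (-0.14), CLOCK (-0.13), MDM2 (-0.12), NPC1 (0.13), SLC1A4 (0.14) and TOP2A (-0.12) passed, as did NOTCH3 and MXD4 at the values above. Under cyclic loess CCNE1 (-0.22), CLOCK (-0.29), MDM2 (-0.21), MXD4 (-0.27), PHGDH (-0.17) and TOP2A (-0.11) passed. CCNE1 passed with medians subtracted (-0.13), CCNE1 (-0.15) and PHGDH (-0.12) with quantile normalization again, and NPC1 (0.165) in a fit of the 8 arrays compared. The cause was not tested. The 4 arrays in each group limit the precision, and levels near the bottom of the scale compress the larger falls. That limit is not only at 2.57, the lowest value, since genes too dim to be tested had means under 3.65. Some genes, such as PRRX1 and LEF1, came near that level at 48 h. Others, such as NELL1 and DDIT3, started near it in untreated arrays, so the folds of both kinds may be limited.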
